A study of Mus musculus with 11 samples.

Results

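The 8 genes described here make or remove reactive oxygen and nitric oxide in the gut lining: Duox2, Duoxa2, Nox1, Noxo1, Cyba, Nos2, Gpx1 and Gpx2. They were chosen by symbol, all 8 were found among the 31168 named genes of the count table, and all 8 passed the filter on low counts. The 11 libraries came from the distal ileum, the last stretch of the small intestine, of mice treated with dextran sodium sulfate, a polysaccharide that injures the intestinal lining. The 6 WT libraries carry the genotype H2-Ab1 fl/fl; Villin:Cre- and the 5 dIEC libraries H2-Ab1 fl/fl; Villin:Cre+. All the mice thus carried floxed H2-Ab1, a gene of MHC class II, and all received dextran sodium sulfate, so no untreated level is available in these groups. In dIEC the villin promoter drives Cre recombinase in the intestinal epithelium, and other cells keep the floxed gene. In the design text Cre-negative is written for each of the 2 groups, so the label of each sample was followed here. The sources used here do not give age, sex, dose or days of treatment. The comparison of dIEC with WT asks how the ileum differs when its epithelium lacks an MHC class II chain.

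As background, dual oxidases and NADPH oxidases move electrons across a membrane onto oxygen and release hydrogen peroxide or superoxide toward the gut lumen. Inducible nitric oxide synthase makes nitric oxide from arginine, and cytokines of infection and injury switch it on in epithelium and macrophages. Glutathione peroxidases, which carry selenocysteine at the active site, reduce hydrogen peroxide with glutathione.

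Library totals were 6603965 to 9681698 counts, of which 22.9 to 37.3% fell on protein-coding genes other than Lars2 and 26.2 to 49.2% on ribosomal rows. Levels are given as CPM, counts per 1000000 after TMM scaling. H2-Ab1, the floxed gene, had a mean of 83.1 ± 27.4 CPM (SD) over the 6 WT libraries and 26.0 ± 9.87 CPM over the 5 dIEC libraries, with no overlap (two-sided exact permutation p = 0.00433, the smallest these groups allow). In the edgeR test used below its log2 fold change was -1.68 ± 0.28 (SE), which did not pass after adjustment over all genes (edgeR adjusted p = 0.361). It passed by DESeq2 (adjusted p = 1.4e-05), with library totals alone (edgeR adjusted p = 0.00611) and without WT replicate 8 (edgeR adjusted p = 0.0421), so the absence of a call below comes from a test that also did not call the targeted gene. Markers of the labelled tissue were present: Fabp6, the bile acid binding protein of ileal enterocytes, ran from 80.01 to 398 CPM, and Epcam, a surface protein of epithelium, from 232 to 425 CPM. Car1, a colon marker, ran from 0 to 2.88 CPM in WT and was at 0 counts in all 5 dIEC libraries. The tissue was taken whole, so fewer cells of a type and less RNA per cell cannot be told apart.

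None of the 8 genes passed the threshold between dIEC and WT. By edgeR's quasi-likelihood test with Benjamini-Hochberg adjustment over 15911 genes, 0 of 8 had an adjusted p under 0.05 and 0 of 8 an unadjusted p under 0.05. DESeq2 also called 0 of 8, but gave no adjusted p for Nox1. Over all genes the edgeR test called 0.00628%, and 10.7% had an unadjusted p under 0.05 (4.87% higher and 5.79% lower in dIEC). The 2 groups overlapped for all 8 genes, while 0.566% of all tested genes did not overlap. Log2 fold changes were above 0 for 6 of the 8 and below 0 for Nox1 and Gpx1, with a median of 0.27 beside -0.01 over all genes tested. Of all 15911 genes tested, 7767 lay above 0. The intervals were wide: a 2-fold change is inside the 95% interval for Duoxa2, Nos2 and Nox1.

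**Figure D1:**
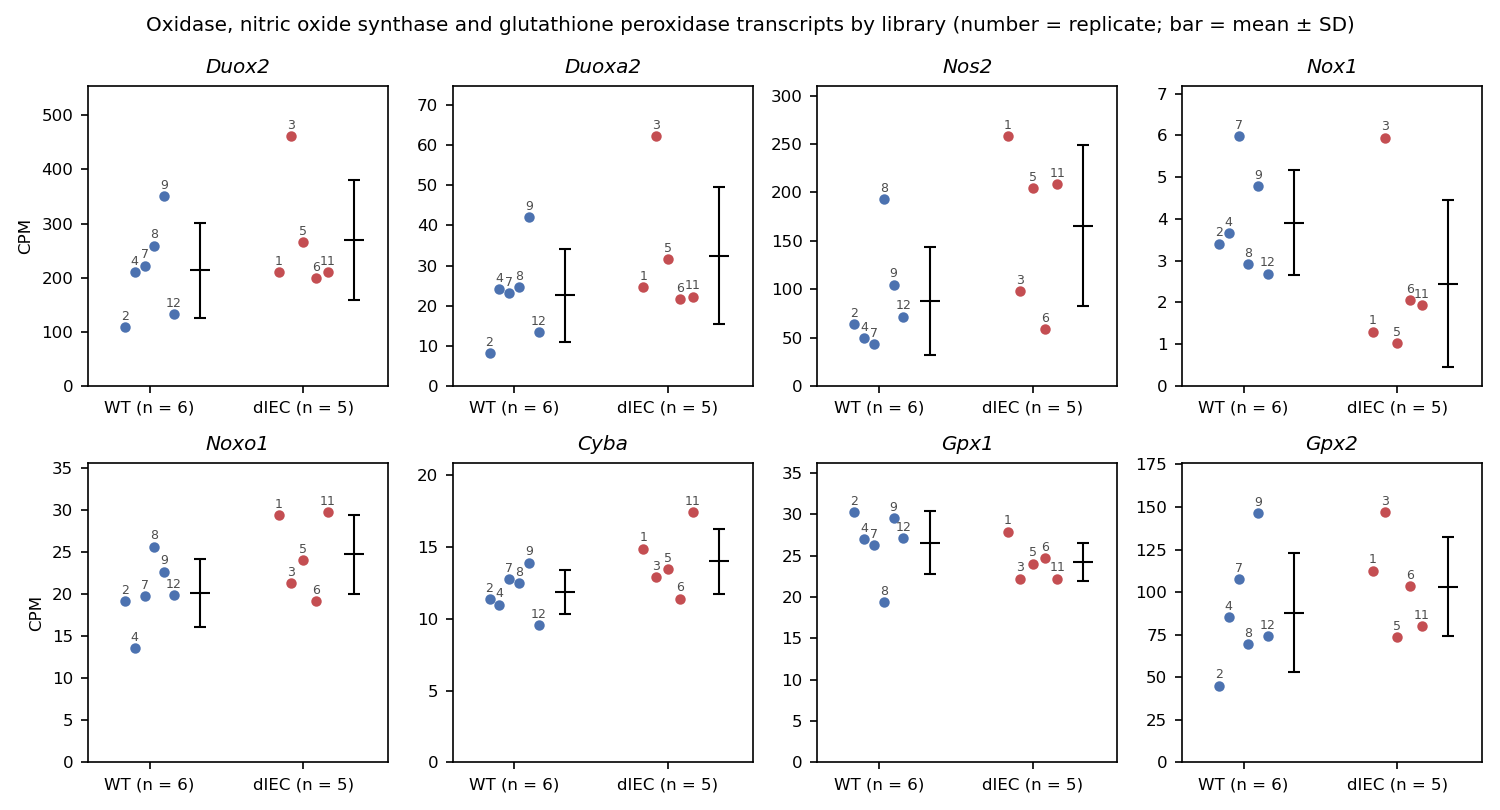
CPM (vertical axes, linear, from 0) of each of the 8 genes in the 6 WT and 5 dIEC libraries, with each point labelled by its replicate number and the mean ± SD beside each group. The groups overlap in every panel, and dIEC replicate 3 stands above the other dIEC libraries for Duox2, Duoxa2 and Nox1.

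Levels per kilobase use the joined length of all annotated exons of a gene, so the order of genes depends on the annotation. For Gpx2 that length, 3222 bases, is the whole span of the gene. The order of mean levels in WT was Duox2 (31.6 ± 13.0 CPM per kb, SD, n = 6), Gpx2 (27.3 ± 10.9), Nos2 (19.9 ± 12.7), Gpx1 (18.4 ± 2.67), Duoxa2 (14.2 ± 7.31), Cyba (11.4 ± 1.48), Noxo1 (6.67 ± 1.33) and Nox1 (1.18 ± 0.38). From Duox2 down to Cyba, the mean ± SD of each neighbour in that order overlapped the next. Only the steps from Cyba to Noxo1 and from Noxo1 to Nox1 were wider than the spread between libraries, which does not cover the length used. The step from Cyba to Noxo1 depends on their lengths, 1039 and 3013 bases. In CPM Noxo1 was above Cyba, at means of 20.1 and 11.8 in WT and 24.7 and 14.0 in dIEC. In dIEC the order was Duox2 (39.8 ± 16.3 CPM per kb, SD, n = 5), Nos2 (37.6 ± 18.9), Gpx2 (32.0 ± 9.06), Duoxa2 (20.4 ± 10.8), Gpx1 (16.8 ± 1.61), Cyba (13.5 ± 2.18), Noxo1 (8.20 ± 1.56) and Nox1 (0.742 ± 0.606), and the same 2 steps stood clear of the spread. The level of Nos2 per kilobase was thus 3rd in WT and 2nd in dIEC, in each case with a mean ± SD that overlapped its neighbours'.

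Duox2 encodes the dual oxidase of gut epithelium, which releases hydrogen peroxide at the cell surface. Its position is chromosome 2, 122279247 to 122298449, minus strand (GRCm38, GENCODE vM21). In WT it had 108, 132, 210, 222, 259 and 351 CPM in replicates 2, 12, 4, 7, 8 and 9. In dIEC it had 200, 210, 210, 266 and 462 CPM in replicates 6, 1, 11, 5 and 3. Apart from replicate 3, every dIEC library lay inside the WT range. The log2 fold change was 0.33 ± 0.30 (SE, 95% interval -0.31 to 0.98, edgeR adjusted p = 0.684), and it was 0.05 without dIEC replicate 3, 0.20 without WT replicate 2 and 0.53 without WT replicate 9.

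Duoxa2 encodes the maturation factor that Duox2 needs to leave the endoplasmic reticulum. The genes lie head to head on chromosome 2, Duoxa2 spanning 122298900 to 122302885 (plus strand), and their annotated starts are 451 bases apart in GENCODE vM21 and 673 bases apart in RefSeq (GRCm38.p6). The WT libraries had 8.09, 13.4, 23.2, 24.1, 24.6 and 42.0 CPM in replicates 2, 12, 7, 4, 8 and 9. The dIEC libraries had 21.7, 22.2, 24.7, 31.6 and 62.3 CPM in replicates 6, 11, 1, 5 and 3. The highest and lowest libraries were those of Duox2. Between the groups the log2 fold change was 0.52 ± 0.39 (SE, 95% interval -0.34 to 1.38, edgeR adjusted p = 0.620), and it was 0.13 without dIEC replicate 3, 0.35 without WT replicate 2 and 0.80 without WT replicate 9. Exons of Duoxa2 overlap exons of Duoxa1, the maturation factor of Duox1, on the other strand, and with the strand setting of the counting not given, reads of the pair cannot be told apart.

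Duox2 and Duoxa2 varied together from library to library. The Pearson r of their log2 CPM over the 11 libraries was 0.985 (permutation p = 0.00001, the smallest that 100000 permutations give, adjusted p = 0.00028 over 28 pairs of the 8 genes). Spearman's rho was 0.90 (permutation p = 0.00032, adjusted p = 0.00448). Without WT replicate 2 and dIEC replicate 3, the libraries farthest from the median, r was 0.970, and within WT alone it was 0.980 (exact permutation p = 0.00278). Counts of Duoxa2 per count of Duox2 ran from 0.0752 to 0.120 in WT and from 0.106 to 0.135 in dIEC. That ratio, which does not depend on the scaling of libraries, was 1.16-fold higher in dIEC, a difference that did not pass (exact permutation p = 0.0866, adjusted p = 0.130 over 6 ratios).

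The 4 genes most like Duox2 over the 11 libraries, of 10262 with a mean of at least 5 CPM, were Duoxa2, Rnh1 (r = 0.965), Duoxa1 (r = 0.943) and Pigs (r = 0.922). Rnh1 encodes the cytosolic ribonuclease inhibitor, and Pigs a subunit of the enzyme that attaches glycolipid anchors to proteins. Only 0.156% of the compared genes had an r over 0.8 with Duox2. Duox1, the other dual oxidase, was much lower, at 1.84 to 6.39 CPM in WT and 2.89 to 8.31 CPM in dIEC.

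Upstream bases are shown for the 4 genes whose 250 bases before the RefSeq start hold no annotated exon, out of 7 with an entry in the RefSeq promoter table (GRCm38.p6). The Duoxa2 window lies between the Duox2 and Duoxa2 starts and Gpx2 is the peroxidase that varied with them. Nox1 and Cyba, chains of a single complex, are shown because each holds a match, in capitals, to a form of the NF-kB site, searched on both strands. Each run reads 5′ to 3′ on the strand of its gene.
Duoxa2, chr2:122298650-122298899, plus strand: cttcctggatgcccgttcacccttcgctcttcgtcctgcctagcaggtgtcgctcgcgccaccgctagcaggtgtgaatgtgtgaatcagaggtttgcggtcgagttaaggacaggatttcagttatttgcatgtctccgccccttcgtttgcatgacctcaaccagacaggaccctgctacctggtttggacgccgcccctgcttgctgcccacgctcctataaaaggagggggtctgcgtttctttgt
Gpx2, chr12:76795555-76795804, minus strand: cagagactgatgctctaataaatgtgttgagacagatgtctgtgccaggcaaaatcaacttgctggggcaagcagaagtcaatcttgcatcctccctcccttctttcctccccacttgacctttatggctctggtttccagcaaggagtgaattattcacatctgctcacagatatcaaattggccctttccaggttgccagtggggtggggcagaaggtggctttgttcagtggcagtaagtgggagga
Nox1, chrX:134111855-134112104, minus strand: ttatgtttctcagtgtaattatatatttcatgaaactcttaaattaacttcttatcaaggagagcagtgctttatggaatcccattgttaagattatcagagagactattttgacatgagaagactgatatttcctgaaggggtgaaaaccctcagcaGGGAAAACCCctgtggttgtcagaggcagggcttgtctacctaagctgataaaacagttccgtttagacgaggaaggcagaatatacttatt
Cyba, chr8:122432941-122433190, minus strand: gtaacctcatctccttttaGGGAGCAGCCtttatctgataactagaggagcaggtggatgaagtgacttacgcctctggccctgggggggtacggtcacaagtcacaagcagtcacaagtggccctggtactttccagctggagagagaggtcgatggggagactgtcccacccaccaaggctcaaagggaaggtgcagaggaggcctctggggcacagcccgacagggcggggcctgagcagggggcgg
The NF-kB form occurred in 3 of the 7 windows (Nox1 at 92 to 83 bases before the start, Cyba at 231 to 222 and Gpx1 at 55 to 46) and in 17.6% of 32851 windows of the same length. The letters TTCNNNGAA (GAS, a site of STAT factors) and TGACNNNGC (the antioxidant response element), and the ISRE (a site of interferon regulatory factors), occurred in 0 of the 7 windows, and in 7.02%, 10.2% and 2.98% of all windows. The RefSeq starts of Nox1 and Gpx1 lie inside the spans that GENCODE vM21 gives these genes, so their windows are upstream of the RefSeq start only. The Gpx1 window touches an annotated exon of Gpx1. The Duoxa2 and Gpx2 windows held none of these 4.

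Nox1 encodes the catalytic chain of the NADPH oxidase of gut epithelium, best known from the colon. The gene spans 134086421 to 134221956 of chromosome X, minus strand. It rested on few reads, 5 to 54 counts per library. In WT it had 2.69, 2.92, 3.405, 3.66, 4.79 and 5.99 CPM in replicates 12, 8, 2, 4, 9 and 7. In dIEC it had 1.02, 1.30, 1.93, 2.06 and 5.95 CPM in replicates 5, 1, 11, 6 and 3. Of the 5 dIEC libraries, 4 lay below every WT library, and replicate 3 lay near the WT maximum. The log2 fold change was -0.60 ± 0.38 (SE, 95% interval -1.42 to 0.22, edgeR adjusted p = 0.561). Without dIEC replicate 3 it was -1.29 ± 0.30, with an unadjusted p of 0.000721 and an edgeR adjusted p of 0.537. With the ribosomal share of counts as a covariate it was -0.38 ± 0.31 (edgeR adjusted p = 0.807), and the part of that share in the Nox1 level was not tested. Exons of Nox1 overlap exons of Cstf2 on the other strand, which had 13.6 to 20.3 CPM over the 11 libraries. With the strand setting not given, reads of Nox1 and Cstf2 cannot be told apart either.

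Noxo1 encodes the organizer subunit that brings the cytosolic parts of the oxidase to Nox1 at the membrane. Its position is chromosome 17, 24696234 to 24700529, plus strand. Exons of Noxo1 overlap exons of Tbl3 on the other strand, which had 22.3 to 31.3 CPM in WT and 27.2 to 35.9 CPM in dIEC. With the strand setting of the counting not given, reads of this pair cannot be told apart. The WT libraries had 13.6, 19.2, 19.7, 19.9, 22.6 and 25.6 CPM in replicates 4, 2, 7, 12, 9 and 8. The dIEC libraries had 19.1, 21.3, 24.0, 29.3 and 29.7 CPM in replicates 6, 3, 5, 1 and 11. The 2 highest libraries were dIEC, and the other 3 dIEC libraries lay inside the WT range. Between the groups the log2 fold change was 0.30 ± 0.16 (SE, 95% interval -0.04 to 0.63, edgeR adjusted p = 0.494).

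Cyba encodes p22phox, the membrane partner that stabilises Nox1 and also the phagocyte oxidase chain Cybb. The gene spans 122424776 to 122432930 of chromosome 8, minus strand. In WT it had 9.54, 10.97, 11.3, 12.5, 12.8 and 13.9 CPM in replicates 12, 4, 2, 8, 7 and 9. In dIEC it had 11.4, 12.9, 13.4, 14.9 and 17.4 CPM in replicates 6, 3, 5, 1 and 11. Here too replicates 1 and 11 stood above every WT library. The log2 fold change was 0.24 ± 0.13 (SE, 95% interval -0.04 to 0.52, edgeR adjusted p = 0.501).

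The Nox1 transcript was low relative to its partners and to Duox2 in most dIEC libraries. Counts of Nox1 per count of Duox2 had a geometric mean of 0.0193 in WT (0.0115 to 0.0320) and 0.00817 in dIEC (0.00421 to 0.0130), 0.424 of the WT value. This had an exact permutation p = 0.00866 and an adjusted p = 0.0519 over 6 ratios, which did not pass. Counts of Noxo1 per count of Nox1 were 5.19 in WT (3.28 to 8.60) and 11.7 in dIEC (3.56 to 21.5; exact permutation p = 0.0519, adjusted p = 0.104). Counts of Cyba per count of Nox1 were 3.09 in WT (2.12 to 4.20) and 6.68 in dIEC (2.16 to 12.1; exact permutation p = 0.0433, adjusted p = 0.104). Without dIEC replicate 3 the 3 ratios passed (exact permutation adjusted p = 0.0190 for each), and without WT replicate 8 the ratio of Nox1 to Duox2 did (adjusted p = 0.0476). Replicate 3 is flagged below as far from the other dIEC libraries for Nox1. With it left out the groups no longer overlapped, so each ratio took the smallest p that these libraries allow. The 3 ratios share the same low Nox1 counts and are not separate results.

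**Figure D2:**
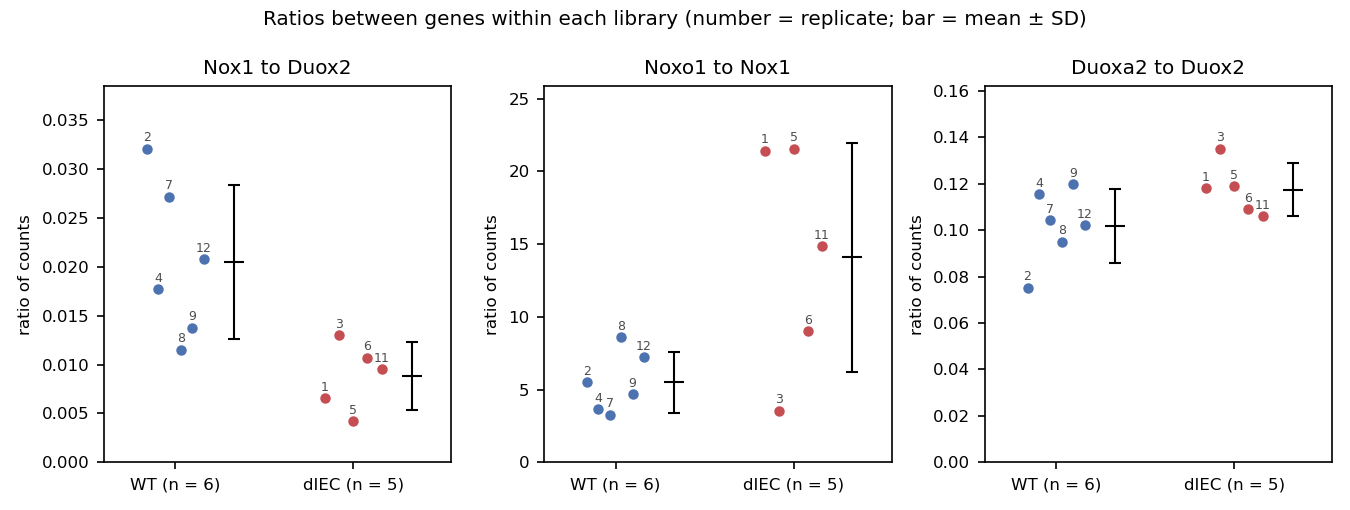
Ratios of counts within each library (vertical axes, linear, from 0) for Nox1 to Duox2, Noxo1 to Nox1 and Duoxa2 to Duox2, by group, with replicate numbers and the mean ± SD. In dIEC replicates 1 and 5 there were over 21 counts of Noxo1 per count of Nox1, against at most 8.60 in WT, while dIEC replicate 3 lay inside the WT range.

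All 10 markers of stem and dividing cells of the crypt had log2 fold changes below 0 (median -0.304, 0 passed), beside 8144 of all 15911 genes tested. In edgeR 0 of the 10 had an unadjusted p under 0.05, beside 10.7% of all genes tested. The score of these markers, the mean log2 CPM of the 10 genes, ran from 3.65 to 4.21 in WT and from 2.17 to 4.22 in dIEC, and their summed level from 248 to 318 CPM and from 98.8 to 324 CPM. The Pearson r of this score with Nox1 over the 11 libraries was 0.705 (permutation p = 0.0124, adjusted p = 0.0788 over 88 relations of 11 marker lists with the 8 genes) and Spearman's rho was 0.564 (permutation p = 0.0759, adjusted p = 0.265). Without dIEC replicates 1 and 5 the r was 0.30, so the relation rests on those samples, and within WT it was 0.0207 (exact permutation p = 0.964). With library totals in place of TMM factors r was 0.825 (permutation adjusted p = 0.0287), and without dIEC replicate 6 it was 0.806 (adjusted p = 0.0428). The part of crypt cell number in the Nox1 level was not tested. The genes most like Nox1 were Nup155 (r = 0.894), a nuclear pore protein, Gpat4 (0.893), an enzyme of glycerolipid synthesis, Usp39 (0.891), a splicing factor, and Ephb3 (0.889), an ephrin receptor of the crypt.

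Nos2 encodes inducible nitric oxide synthase and had the largest fold change of the 8. Its position is chromosome 11, 78920787 to 78960254, plus strand. The WT libraries had 43.1, 49.5, 63.6, 71.5, 105 and 193 CPM in replicates 7, 4, 2, 12, 9 and 8. The dIEC libraries had 59.0, 98.0, 204, 209 and 258 CPM in replicates 6, 3, 5, 11 and 1. The values were not apart by genotype: the 3 highest dIEC libraries and WT replicate 8 lay near 200 CPM or above, and the other 2 dIEC libraries lay among the other 5 WT libraries. Between the groups the log2 fold change was 0.92 ± 0.45 (SE, 95% interval -0.06 to 1.90, edgeR adjusted p = 0.480). Without WT replicate 8 it was 1.32 ± 0.41 (edgeR adjusted p = 0.109), in a fit that called 2.02% of all genes and 0 of the 8. In that fit Noxo1 was at 0.38 (edgeR adjusted p = 0.164) and Gpx1 at -0.21 (edgeR adjusted p = 0.222).

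Nos2 went with several marker scores from library to library, among them that of the absorptive enterocyte markers. The score of these markers, the mean log2 CPM of 18 measured of 20 genes, ran from 5.57 to 7.45 in WT and from 6.06 to 7.49 in dIEC, with means of 6.18 and 7.03. All 18 had log2 fold changes above 0 (median 0.712), beside 7767 of all 15911 genes tested. An unadjusted p under 0.05 was found for 5 of the 18, beside 10.7% of all genes tested, and 0 passed. Over the 11 libraries the Pearson r with Nos2 was 0.911 (permutation p = 0.00056, adjusted p = 0.0267 over 88 relations) and Spearman's rho was 0.864 (permutation p = 0.00114, adjusted p = 0.0279). It was 0.867 without WT replicate 7 and dIEC replicate 1, and 0.967 within WT (exact permutation p = 0.00556). Leaving out WT replicate 4 gave an adjusted p of 0.0710, and leaving out dIEC replicate 11 gave 0.0613. With the enterocyte score as a covariate the log2 fold change of Nos2 was 0.04 ± 0.29 (SE, edgeR adjusted p = 0.9999), and with the score of general epithelial markers it was 0.37 ± 0.38. Fibroblast and matrix markers, whose score ran from 4.90 to 6.34 in WT and 4.78 to 5.57 in dIEC over 14 genes, had an r of -0.848 with Nos2 (permutation p = 0.00194, adjusted p = 0.0267, rho -0.864 with permutation p = 0.00103). That r was -0.761 without WT replicates 4 and 7 and -0.842 within WT (exact permutation p = 0.0375). It did not pass with library totals (r = -0.769, permutation adjusted p = 0.0765), nor when WT replicate 4 or 7 or dIEC replicate 1 or 11 was omitted (r from -0.829 to -0.806). Nos2 also passed with the scores of general epithelium (r = 0.837, permutation adjusted p = 0.0267), colon (0.795, 0.0379) and crypt (-0.754, 0.0273). Within WT these r were 0.952, 0.978 and -0.281, and by Spearman's rho the permutation adjusted p were 0.0559, 0.0792 and 0.0792. The macrophage score had an r of -0.665 (permutation adjusted p = 0.14), and of -0.945 within WT. Of the 88 relations 10 had an adjusted p under 0.05, all of them with Nos2 or Noxo1, and the part of cell makeup in these levels was not tested.

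Nos2 and Noxo1, which belong to different enzymes, also varied together. Their Pearson r was 0.876 (permutation p = 0.00012, adjusted p = 0.00168 over 28 pairs) and Spearman's rho 0.927 (permutation p = 0.00014, adjusted p = 0.00392), with an r of 0.894 without WT replicate 7 and dIEC replicate 1 and 0.772 within WT (exact permutation p = 0.0819). With library totals in place of TMM factors r was 0.585 and the call was lost (permutation adjusted p = 0.169). Noxo1 and Cyba had an r of 0.757 (permutation p = 0.00857, adjusted p = 0.0480), a rho of 0.791 (permutation p = 0.00552, adjusted p = 0.0515) and an r within WT of 0.452 (exact permutation p = 0.372). It did not pass with library totals (r = 0.753, permutation adjusted p = 0.0717), nor when WT replicate 2 or 9 or any 1 of the 5 dIEC libraries was omitted, with r from 0.675 to 0.841 over the 11 omissions. Without the libraries farthest from the median, WT replicate 4 and dIEC replicate 11, r was 0.704. Noxo1 had an r of 0.795 with the enterocyte score (permutation p = 0.00195, adjusted p = 0.0267, rho 0.80 with permutation p = 0.00489 and adjusted p = 0.0615). That r was 0.786 without WT replicate 7 and dIEC replicate 1 and 0.671 within WT (exact permutation p = 0.174). It did not pass with library totals (r = 0.665, permutation adjusted p = 0.148), nor when WT replicate 4 or 12 or dIEC replicate 1 or 11 was omitted (r from 0.752 to 0.859). With that score as a covariate the log2 fold change of Noxo1 was 0.02 and that of Cyba 0.08. Noxo1 also passed with the scores of smooth muscle (r = -0.844, permutation adjusted p = 0.0267), general epithelium (0.830, 0.0267), fibroblasts and matrix (-0.825, 0.0267) and colon (0.795, 0.0283). Within WT these r were -0.848, 0.848, -0.729 and 0.829 (exact permutation p = 0.00417, 0.0431, 0.115 and 0.0361). Counts of Noxo1 may include reads of Tbl3, which limits all of these relations of Noxo1.

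Nox1 and its partners did not share such a pattern. The r of Nox1 with Noxo1 was -0.470 (permutation p = 0.146, adjusted p = 0.463, rho -0.473 with permutation p = 0.146), and with Cyba it was -0.254 (permutation p = 0.455, adjusted p = 0.606, rho -0.273 with permutation p = 0.418). With library totals both turned positive, at 0.222 and 0.537. Within WT they were -0.0651 and 0.688 (exact permutation p = 0.901 and 0.133). Nos2 with Nox1 had an r of -0.641 (permutation p = 0.0372, adjusted p = 0.149, rho -0.655 with permutation p = 0.0335). Duox2 with Nos2 had an r of 0.284 (permutation p = 0.395, adjusted p = 0.606, rho 0.345 with permutation p = 0.30), and Duox2 with the enterocyte score an r of 0.528 (permutation p = 0.0998, adjusted p = 0.283, rho 0.455 with permutation p = 0.162).

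**Figure D3:**
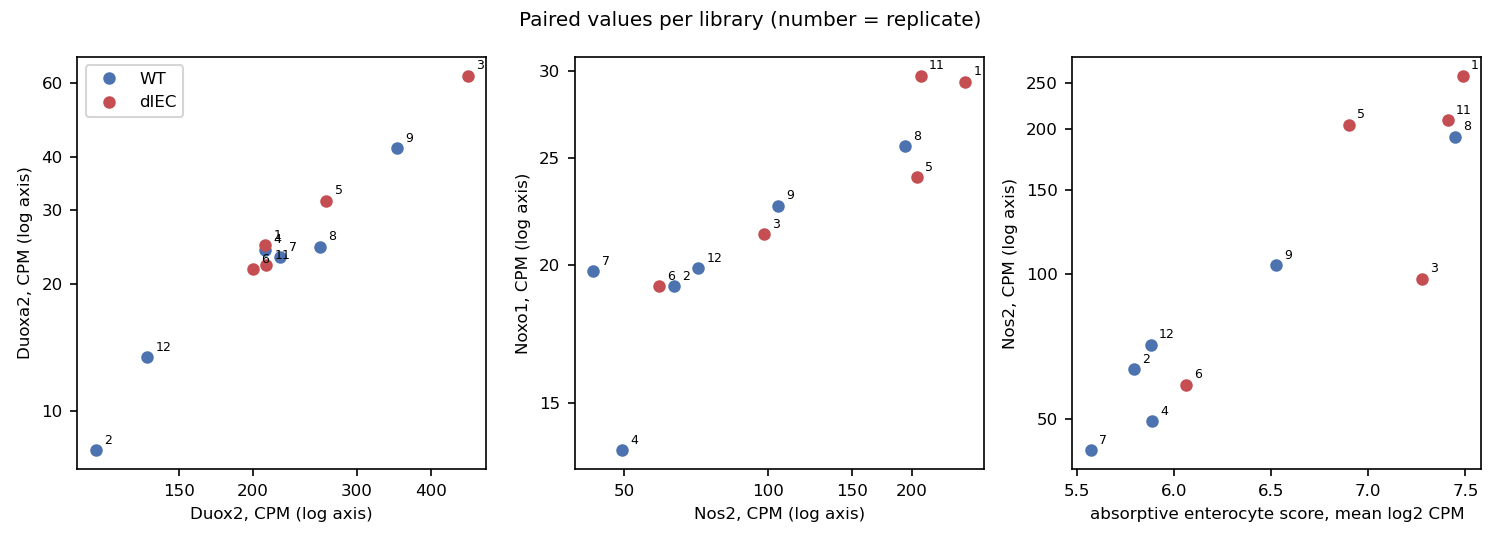
Duoxa2 against Duox2 and Noxo1 against Nos2 (CPM, log axes), and Nos2 (CPM, log axis) against the absorptive enterocyte score (mean log2 CPM), 1 point per library with its replicate number. WT replicate 8, at 193 CPM of Nos2, lies with the dIEC libraries of high score, and dIEC replicate 6, at 59.0 CPM, lies with the WT libraries of low score.

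The genes most like Nos2 were Slc16a10 (r = 0.981), an aromatic amino acid transporter, Slc39a14 (0.980), a zinc and manganese importer, Lrrc19 (0.974), a membrane protein with leucine-rich repeats, and Ptprf (0.969), a receptor phosphatase. Of the compared genes 7.36% had an r over 0.8 with Nos2, beside 0.156% for Duox2, 0.273% for Nox1 and 0.078% for Gpx2. Depth, ribosomal share and marker scores differed between these libraries. Their part in the correlations was not tested, and the correlations are given as a description.

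Gpx1 encodes the glutathione peroxidase found in the cytosol of most cells. Of the 8 genes it had the smallest fold between its highest and lowest library, while within WT the coefficient of variation was 14.5% for Gpx1 and 13.0% for Cyba. The gene spans 108338903 to 108340343 of chromosome 9, plus strand. In WT it had 19.4, 26.3, 27.0, 27.1, 29.5 and 30.2 CPM in replicates 8, 7, 4, 12, 9 and 2. In dIEC it had 22.2, 22.2, 24.0, 24.7 and 27.9 CPM in replicates 3, 11, 5, 6 and 1. WT replicate 8 was the lowest library, and the highest and lowest of the 11 differed 1.56-fold for Gpx1, beside 7.71-fold for Duoxa2. The log2 fold change was -0.14 ± 0.12 (SE, 95% interval -0.39 to 0.11, edgeR adjusted p = 0.664).

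Gpx2 encodes the glutathione peroxidase of gut epithelium. Its position is chromosome 12, 76792333 to 76795554, minus strand. The WT libraries had 45.1, 69.6, 74.2, 85.4, 107 and 146 CPM in replicates 2, 8, 12, 4, 7 and 9. The dIEC libraries had 73.5, 79.95, 103, 113 and 147 CPM in replicates 5, 11, 6, 1 and 3. The dIEC values lay inside the WT range but for replicate 3, which exceeded WT replicate 9 by less than 1 CPM. Between the groups the log2 fold change was 0.23 ± 0.26 (SE, 95% interval -0.33 to 0.79, edgeR adjusted p = 0.756). It was 0.07 without dIEC replicate 3, 0.10 without WT replicate 2 and 0.43 without WT replicate 9. Counts of Gpx2 per count of Gpx1 were 3.13 in WT (1.49 to 4.95) and 4.14 in dIEC (3.05 to 6.59; exact permutation p = 0.264, adjusted p = 0.317 over 6 ratios).

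Gpx2, which removes hydrogen peroxide, had a high r with the hydrogen peroxide producer Duox2 and with Duoxa2, and an r near 0 with Gpx1. Its r with Duoxa2 was 0.827 (permutation p = 0.00215, adjusted p = 0.0201, rho 0.582 with permutation p = 0.0662 and adjusted p = 0.265), and with Duox2 it was 0.775 (permutation p = 0.00608, adjusted p = 0.0426, rho 0.482 with permutation p = 0.137 and adjusted p = 0.382). With Gpx1 it was -0.018 (permutation p = 0.957, adjusted p = 0.984, rho 0.0909 with permutation p = 0.796). The difference between these r values was not tested. Without WT replicate 2 and dIEC replicate 3 the r was 0.522 with Duoxa2 and 0.436 with Duox2, so these relations rest on the extreme libraries, and within WT they were 0.895 and 0.829 (exact permutation p = 0.0250 and 0.0458). With Duoxa2 it did not pass when WT replicate 2, WT replicate 9 or dIEC replicate 3 was omitted (permutation adjusted p = 0.162, 0.0877 and 0.0855). With Duox2 it did not pass when WT replicate 2, 4, 9 or 12 or dIEC replicate 3 or 11 was omitted (r from 0.634 to 0.838 over the 11 omissions). The genes most like Gpx2 were Cox7c and Hnrnpd (r = 0.858 each), of respiratory complex IV and of RNA binding, Duoxa1 (0.847) and Gm10705 (0.830).

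**Figure D4:**
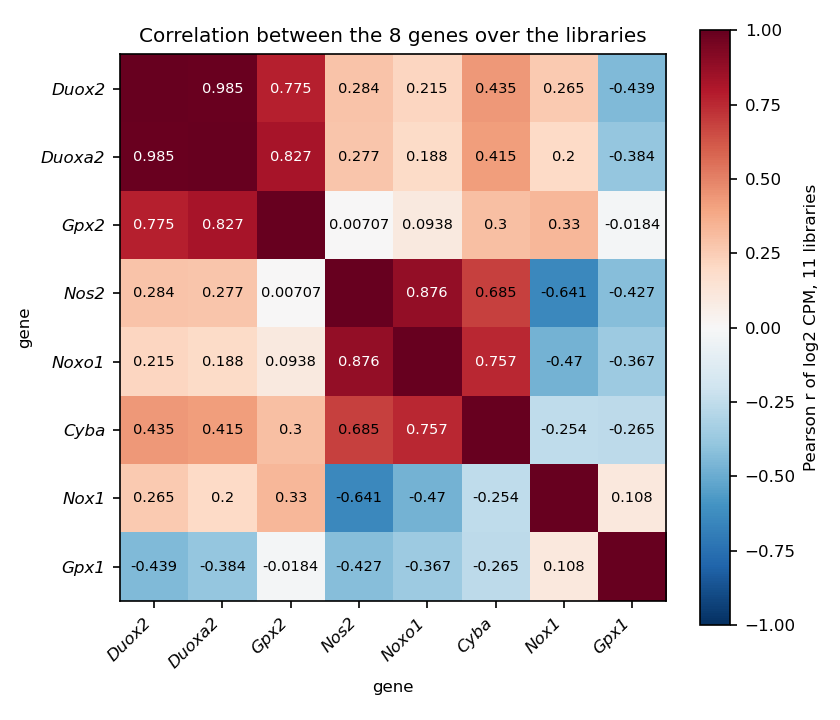
Pearson r of log2 CPM between each pair of the 8 genes over the 11 libraries (colour from -1 to 1). Duox2, Duoxa2 and Gpx2 form a block of r from 0.775 to 0.985, and Nos2, Noxo1 and Cyba one of 0.685 to 0.876, while Nox1 and Gpx1 had no pair with an r above 0.33. Nos2 with Cyba, at 0.685, did not pass (permutation p = 0.0177, adjusted p = 0.0826) and had an r of 0.307 within WT (exact permutation p = 0.551).

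**Figure D5:**
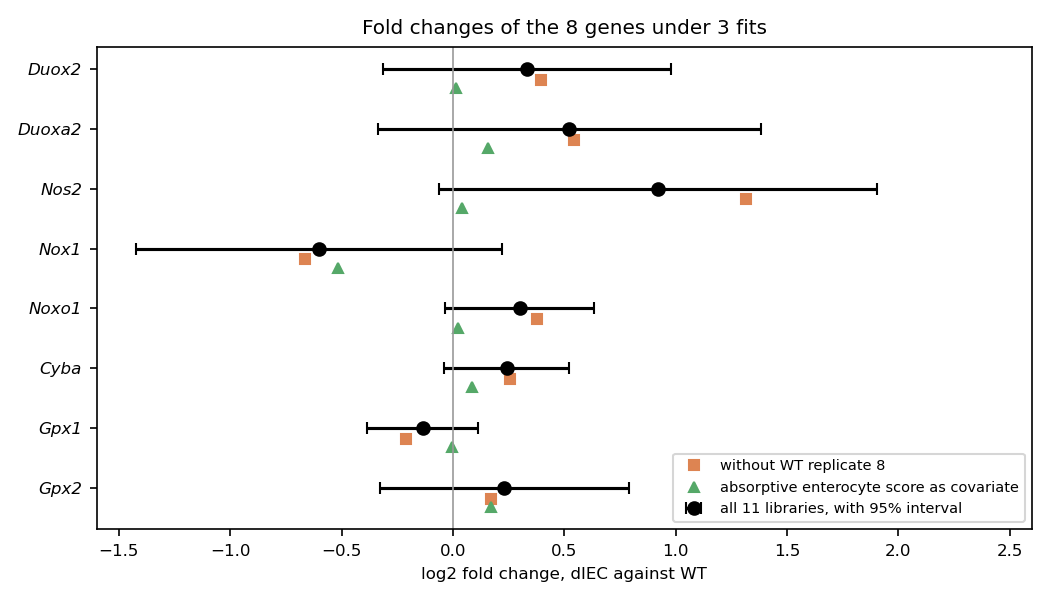
Log2 fold change of each gene, dIEC against WT, with its 95% interval (all 11 libraries), and the values without WT replicate 8 and with the absorptive enterocyte score as a covariate. With that covariate Nos2 moves from 0.92 to 0.04 (SE 0.29) and Nox1 from -0.60 to -0.52 (SE 0.51).

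Other genes of these pathways also gave no call. Over all 15911 genes tested, 7767 lay above 0 and 10.7% had an unadjusted p under 0.05, the shares to set beside each list that follows. Of 13 other oxidase chains, maturation factors and haem peroxidases, 8 were tested, 0 passed, and 7 had log2 fold changes above 0 (median 0.18). The lowest p values were those of Rac1 (the small GTPase that activates Nox1; 85.4 and 97.9 CPM in WT and dIEC), Duoxa1 (8.33 and 12.5 CPM) and Ncf1, an organizer of the phagocyte oxidase (2.46 and 3.05 CPM), at edgeR adjusted p = 0.565, 0.573 and 0.743. Cybb, the catalytic chain of that oxidase, had 4.78 to 13.6 CPM in WT and 5.09 to 17.0 in dIEC. None of 13 neutrophil markers passed the filter on low counts (0 tested, 12 in the table), their summed level was 2.92 to 4.39 CPM in WT and 2.13 to 6.50 CPM in dIEC, and S100a8 and S100a9 had at most 2 and 4 counts in a library. Scores of macrophage markers were 1.85 to 3.21 in WT and 2.15 to 2.95 in dIEC (13 of 14 measured).

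Of 24 genes that remove superoxide and peroxides or run the glutathione and thioredoxin systems, all 24 were tested and 0 passed, with 14 above 0 and 10 below (median 0.07), and 4 at an unadjusted p under 0.05. Sod3, the secreted superoxide dismutase, had 7.55 and 4.54 CPM in WT and dIEC (log2 fold change -0.74 ± 0.28 SE, edgeR adjusted p = 0.427). Glrx, glutaredoxin, had 46.8 and 69.0 CPM (0.56 ± 0.21, edgeR adjusted p = 0.428). Gsr, glutathione reductase, had 84.6 and 114.5 CPM (0.44 ± 0.18, edgeR adjusted p = 0.435). Without WT replicate 8, in the fit that called 2.02% of all genes, 3 of this list passed in edgeR: Srxn1, the enzyme that repairs oxidised peroxiredoxins (log2 fold change 0.66, adjusted p = 0.0394, named for this call), Sod3 (-0.90, adjusted p = 0.0482) and Glrx (0.74, adjusted p = 0.0491).

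Of 9 genes that make or supply selenocysteine, which glutathione peroxidases need, 9 were tested, 0 passed, and 7 lay above 0 (median 0.10, 1 at an unadjusted p under 0.05). Sephs2, which makes the selenium donor, had 34.6 and 43.8 CPM in WT and dIEC (edgeR adjusted p = 0.427). Selenop, the selenium transport protein, had 389 ± 170 and 630 ± 227 CPM (SD, edgeR adjusted p = 0.471), and Eefsec, the elongation factor for selenocysteine, 4.32 and 5.32 CPM (edgeR adjusted p = 0.481).

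Of 17 genes of nitric oxide synthesis and sensing, 16 were tested, 0 passed, and 8 lay on each side of 0 (median -0.08, 4 at an unadjusted p under 0.05). Gucy1b1 and Gucy1a1, the subunits of the nitric oxide receptor, had 14.1 and 9.13 CPM and 20.5 and 14.4 CPM in WT and dIEC (edgeR adjusted p = 0.427 and 0.456). Smooth muscle markers, cells known to carry this receptor, scored 7.26 to 8.27 in WT and 6.33 to 7.74 in dIEC over 12 genes, and their part in these values was not tested. Nostrin, which binds the endothelial synthase, had 18.9 and 25.7 CPM (edgeR adjusted p = 0.443).

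Of 28 cytokines, receptors and transcription factors known to induce Duox2, Nox1 or Nos2, 21 were tested, 0 passed, and 19 lay above 0 (median 0.22, 5 at an unadjusted p under 0.05). Over all 15911 genes tested, 7767 lay above 0 and 10.7% had an unadjusted p under 0.05. Stat3, a transcription factor of cytokine signalling, had 63.0 and 81.1 CPM in WT and dIEC (log2 fold change 0.36 ± 0.13 SE). Cebpd, a transcription factor induced in inflammation, had 7.53 and 11.9 CPM, and Nfkbia, the inhibitor of NF-kB that NF-kB itself induces, had 16.9 and 27.7 CPM, each at edgeR adjusted p = 0.427. The cytokines themselves were too low to test: Il22, Ifng and Il6 had at most 2, 2 and 3 counts in a library, Il17f 4, Il1b 11 and Tnf 15. A difference in them was not detectable at this depth, and Il17a was not among the named genes of the count table. Of 13 markers of intraepithelial and cytotoxic lymphocytes 7 were measured, all 7 lay above 0 at an unadjusted p under 0.05 and 0 passed, with a score of 1.21 to 2.38 for WT and 2.25 to 3.18 for dIEC, and their part in these values was not tested.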

How the data were processed

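Per the labels' protocols, RNA of 2 cm of distal ileum was made into directional NEBNext Ultra libraries. TopHat2 and the mm10 build are named in the submitters' processing notes. The authors deposited a single table of raw counts per gene. How reads were counted, with which strand setting and annotation, is not given in the sources used here. All 11 columns matched a sample by name, and the groups follow the title. The design text counts 6 and 5 mice, so each library was taken as a mouse, and p-values measure the spread between libraries. The row without a gene name (0.00778 to 0.0147% of counts) was left out.

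Genes were filtered with filterByExpr (15911 kept) and fitted in edgeR 4.0.16 (R 4.3.3) with TMM factors, robust quasi-likelihood F tests of dIEC against WT and Benjamini-Hochberg adjustment at 0.05. The fit was tested on simulated data. The standard error is the log2 fold change over the square root of F. Exon lengths and positions come from GENCODE vM21, the annotation of GRCm38 (99.2% of symbols matched). The RefSeq promoter table has the same build. Ratios (0.5 added to each count) were compared by an exact permutation test with 462 arrangements. Correlations use log2 CPM with a prior count of 2, with 100000 permutations. Alternatives were DESeq2 1.42.0, its size factors, library totals, no filter, non-robust dispersion, 4 covariates and each library left out.

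The genes, lists and tests were chosen with earlier results of these data known, and the relations with marker scores were added after the values were seen. The text names the 8 genes, at most 3 genes per related list by lowest p, the 4 most like Duox2, Nos2, Nox1 and Gpx2, and markers or overlapping genes beside a result. Marker lists not described elsewhere scored, in WT and dIEC: goblet 7.59 to 8.13 and 7.59 to 8.17, Paneth 6.43 to 8.07 and 6.81 to 7.77, colon 4.18 to 5.38 and 4.52 to 5.33 (3 of 7 measured), red blood cell 3.11 to 4.83 and 3.16 to 4.29, general epithelium 6.89 to 7.64 and 7.19 to 7.59.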

Additional observations from a re-analysis of the deposited data

Results flagged for a closer look

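In 28 sets of values (8 genes and 6 ratios, each in WT and in dIEC), 4 had a highest or lowest library whose gap to the nearest other exceeded Dixon's limit for groups of that size, which chance alone passes in about 1 of 20 sets. Among dIEC libraries, replicate 3 stood highest for Duox2 (462 CPM, next 266 CPM), Duoxa2 (62.3 CPM, next 31.6 CPM) and Nox1 (5.95 CPM, next 2.06 CPM). Among WT libraries, replicate 8 stood lowest for Gpx1 (19.4 CPM, next 26.3 CPM).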

How the results depend on the processing

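Under 20 alternatives, 0 of the 8 genes were called each time, and of 160 recomputed fold changes 159 kept their direction. The exception was Gpx1, at 0.013 with the epithelial content score as a covariate. Library totals alone shifted the median of all genes to -0.22. The count of all genes called was 1, and became 2 with library totals alone, 2 with the ribosomal share as a covariate, 0 with the epithelial score, 11 by DESeq2, and 1 to 319 when each library was left out, with 319 without WT replicate 8. By DESeq2 Nox1 had no adjusted p. With each library left out, the difference in log2 ratio ran from -1.40 to -0.997 for Nox1 to Duox2, from 0.954 to 1.60 for Noxo1 to Nox1 and from 0.898 to 1.52 for Cyba to Nox1. The r of Gpx1 with Gpx2 ran from -0.243 to 0.395 and was 0.508 with library totals, where Nox1 with Noxo1 gave 0.222 and Nox1 with Cyba 0.537. The cause of these shifts was not tested. Depth limits Nox1 most, at 5 to 54 counts per library. No paired analysis was made because the labels give no pairing of the libraries.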

Other observations

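Among the peroxide-removing enzymes not described above, chosen here after their values were seen, Cat (catalase) had a mean of 35.7 ± 10.9 CPM (SD) over the WT libraries and 44.0 ± 12.6 CPM over the dIEC libraries. Sod1, the cytosolic superoxide dismutase, had 27.3 ± 3.601 and 31.2 ± 7.55 CPM, and Sod2, the mitochondrial enzyme, 22.8 ± 2.06 and 21.4 ± 0.821 CPM. Gpx3, the secreted glutathione peroxidase, had 25.03 ± 7.55 and 30.3 ± 12.2 CPM, and Gpx4, which reduces lipid peroxides, 9.02 ± 2.15 and 8.15 ± 1.45 CPM. None of these 5 passed in edgeR (adjusted p = 0.598 for Cat, 0.602 for Sod1, 0.728 for Sod2, 0.686 for Gpx3 and 0.807 for Gpx4).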
